A study of Mus musculus with 4 samples.

Results

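The Irx and Meis genes and Pbx3 belong to the TALE class of homeobox genes, and were examined in mouse otocysts at stage E10.5 in which Tbx2 and Tbx3 were to be deleted. The set held 10 genes, which were Irx1 to Irx6, Meis1, Meis2, Meis3 and Pbx3, out of 31791 gene names on the array, and every experimental probe with one of these names was taken. That gave 13 probes of the 39429 experimental probes on the array. The mutant RNA came from embryos called Tbx2/3cDKO, which carried Pax2-cre and were fl/fl, with floxed alleles on both copies, for Tbx2 and for Tbx3. The control RNA came from embryos labelled fl/? for each of these genes, and all were of the NMRI strain. The control labels name no Cre and leave the second copy of each gene undefined, so controls with different numbers of floxed copies cannot be told apart. In the mutants Cre recombinase was driven by Pax2 sequences, so deletion was limited to cells that had used that driver, and Pax2 is also used outside the ear, for example in the kidney. Otocysts, the closed epithelial vesicles that form the inner ear, were dissected by hand, and the labels do not say how many embryos went into 1 RNA sample.

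Each of the 4 two-colour Agilent arrays compared 1 Tbx2/3cDKO RNA with 1 control RNA, and the dyes were swapped on arrays 2 and 4. Arrays 1 and 2 carried female RNA and arrays 3 and 4 male RNA. A log2 ratio below is Tbx2/3cDKO over control on the same array, and a level is the log2 intensity of 1 dye channel after normalisation. Beyond these sex labels, nothing states that the 4 pairs came from separate animals or litters. The spread behind each p-value is therefore that of these 4 pairs and may be technical in part.

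On each array between 58.8% and 61.7% of spots were well above background, and no experimental spot was saturated. The log2 ratios of any 2 arrays correlated with a Pearson r of 0.643 to 0.849 across the 23204 probes tested, which share tissue and platform and are not independent replicates. Tbx3, a repressor of the T-box family, had ratios of -3.38, -3.48, -3.61 and -3.25, so its level was 10.8-fold lower in Tbx2/3cDKO otocysts (limma adjusted p = 3.31e-06). Tbx2 had a mean log2 ratio of 0.06 ± 0.23 (SD, n = 4; limma adjusted p = 0.656). The labels do not give the deleted part of either gene, so a probe outside that part does not check the deletion. Most of the otic epithelium markers examined were lower in Tbx2/3cDKO samples, with 8 of 12 lower and 1 higher, while the otocyst markers Pax2, Eya1 and Epcam did not pass the test. Over all genes at 1 probe a gene, 9.8% were lower and 13.1% higher.

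TALE proteins carry an extended loop in the homeodomain. Meis proteins bind DNA together with Pbx proteins and with Hox proteins, as complexes that select sites the single proteins bind weakly. The Iroquois (Irx) genes of mammals lie in 2 clusters, IrxA with Irx1, Irx2 and Irx4 and IrxB with Irx3, Irx5 and Irx6, and they help to set regional identity in the nervous system, heart, limb and sensory organs. Tbx2 and Tbx3 are T-box transcription factors that mostly act as repressors and bind a short element with the core GGTGTG.

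The middle 30 bases (bases 16 to 45 of 60) of the probes on which the results turn are printed 5′ to 3′ as deposited, since the 2 Irx2 probes gave different values. Coordinates are those of the files, on mouse build mm9.
Irx2, chr13:72768799-72768828, plus strand: cgaatcaggctcagagtgtaaggacaagtt
Irx2, chr13:72771514-72771543, plus strand: agtttattcacatagaaatgtgtttccaga
Irx3, chr8:94322491-94322520, minus strand: tatatacgggaaaatgtacatacgtgtgaa
Meis1, chr11:18780710-18780739, minus strand: ttccatagtcccaccttggagcatttatgt
Meis2, chr2:115689656-115689685, minus strand: tgtacatttctgttgatcactccgttatgt
Pbx3, chr2:34027496-34027525, minus strand: ctctgaacaatactcacgctgtagtttgtc
Over all 78 pairs of member probes the longest run of bases in common was 10 of 60. Whether a probe lies in a coding exon or in an untranslated region was not analysed here.

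In Tbx2/3cDKO otocysts Meis1 and Irx3 fell, and Meis2, Pbx3 and 1 of the 2 Irx2 probes rose. All 5 changes were small, between 1.16-fold and 1.41-fold. Irx1, Irx4, Irx5, Irx6 and all 3 Meis3 probes did not pass the test. All 13 member probes were well above background in both channels of every array, so all 13 entered the fit. Of these, 5 (38.5%) passed a limma adjusted p of 0.05, against 22.1% of all probes tested. Higher calls were 3 of 13 (23.1%) against a background of 12.4%, and lower calls 2 of 13 (15.4%) against 9.69%. With this few probes, the counts say little about the set as a whole. Without array 1 or without array 3, limma called 0 member probes higher and 1 lower, with 3 and 2 higher at an unadjusted p under 0.05. Without array 4 the calls were 2 higher and 1 lower. Over all probes tested, the fits without array 1, 3 or 4 called 15.9%, 14.2% and 19.6%, against 22.1% with all 4 arrays. Calls were thus lost across the whole array in these fits. The loss was larger in proportion among the members, where 5 calls became 1 without array 1 or without array 3.

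Across the members the median absolute log2 ratio was 0.17, against 0.093 over all probes tested. The ratio had 1 sign on all 4 arrays for 8 of the 13 probes (61.5%), against 40.7% of probes. The 4 Tbx2/3cDKO levels and the 4 control levels did not overlap for 4 of 13 probes (30.8%), against 22.5% of probes. Only Meis1 had an absolute ratio of 0.5 or more, a size that 6.51% of probes reached.

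**Figure D1:**
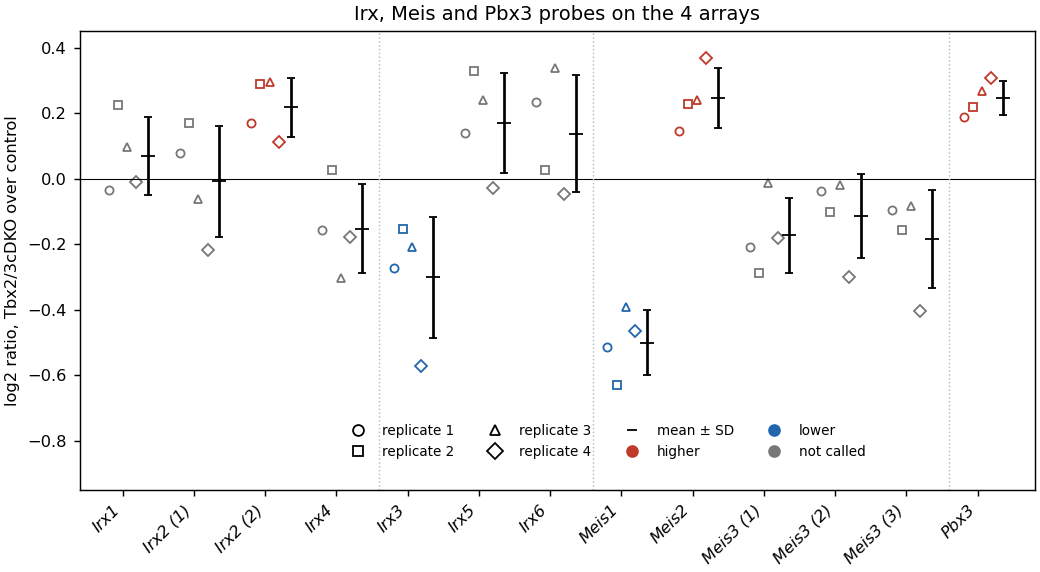
Log2 ratio of Tbx2/3cDKO over control for each of the 13 member probes, with 1 symbol shape per array and the mean with its SD (n = 4). Irx2 (1) and (2) are the probes at chromosome positions 72768784 and 72771499, and Meis3 (1) to (3) lie at 16771729, 16771439 and 16764370. Meis1 lies below 0 on every array with a mean of -0.50, while the other 12 probes have means between -0.30 and 0.25.

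Meis1, a Pbx and Hox cofactor best known from haematopoiesis, eye and heart development, had the largest change in the set. Its probe on chromosome 11 (minus strand, mm9) had levels of 11.30, 11.24, 11.38 and 11.45 in Tbx2/3cDKO otocysts, against 11.81, 11.87, 11.77 and 11.91 in control otocysts. Every Tbx2/3cDKO level was below every control level. Its log2 ratios were -0.51, -0.63, -0.39 and -0.46, with a mean of -0.50 ± 0.10 (SD, n = 4; limma SE 0.057, 95% interval -0.64 to -0.37, adjusted p = 0.00107). That is 1.41-fold lower, and 93.5% of all probes tested had a smaller absolute ratio. Meis1 was called lower under all 19 alternative settings tried, with values from -0.56 to -0.46 and a highest adjusted p of 0.00714.

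Meis2, the closest relative of Meis1 and also a Pbx partner, moved the other way. Meis2 levels on chromosome 2 (minus strand) were 12.72, 12.84, 12.81 and 13.12 in Tbx2/3cDKO otocysts and 12.57, 12.62, 12.57 and 12.75 in control otocysts. The groups overlapped slightly, although on each array the Tbx2/3cDKO channel was the higher one. The 4 ratios were 0.15, 0.23, 0.24 and 0.37 and averaged 0.25 ± 0.09 (SD, n = 4; limma SE 0.055, adjusted p = 0.0186), or 1.19-fold higher. The call was lost without array 1 (0.27, adjusted p = 0.0580), without array 3 (0.22, adjusted p = 0.118) and without array 4 (0.21, adjusted p = 0.0662). It was also lost when the pairing of channels within an array was not used, with the same ratio and an adjusted p of 0.101, and under median centring in place of loess, at 0.24 with an adjusted p of 0.0683.

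Pbx3, a DNA-binding partner of Meis and Hox proteins, rose by a similar amount. Pbx3 had levels of 12.88, 12.90, 12.94 and 13.09 in Tbx2/3cDKO otocysts, against 12.69, 12.68, 12.67 and 12.78 in control otocysts. The groups did not overlap. Ratios of 0.19, 0.22, 0.27 and 0.31 gave a mean of 0.25 ± 0.05 (SD, n = 4; limma SE 0.052, adjusted p = 0.0154), the smallest SD of the 13 probes. Leaving out array 1, 3 or 4 kept the size at 0.27, 0.23 and 0.22, with adjusted p-values of 0.0557, 0.103 and 0.0518. The call was also lost under median centring (adjusted p = 0.0641), with the scanner's log ratios (0.21, adjusted p = 0.0772) and with the deposited series values (0.21, adjusted p = 0.0772).

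The Pbx3 and Meis2 ratios differed by at most 0.06 on any array, with a mean difference of 0.00023 (Meis2 minus Pbx3). Meis1 minus Meis2 was -0.66, -0.86, -0.63 and -0.83, and Meis1 minus Pbx3 averaged -0.75 ± 0.08 (SD, n = 4). These differences were computed between genes that share the same 4 arrays and are given as descriptions.

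The 3 probes of Meis3, the remaining Meis gene, which is known as a hindbrain patterning factor in Xenopus, all had ratios below 0 on all 4 arrays. The probes start at positions 16771729, 16771439 and 16764370 of chromosome 7. Their means in that order were -0.17 ± 0.12, -0.11 ± 0.13 and -0.18 ± 0.15 (SD, n = 4), and none passed the test (limma adjusted p = 0.0795, 0.208 and 0.0718). Without array 2 the third of these passed, at -0.25 with an adjusted p of 0.0312, and with a genotype by sex term the first and the third passed (adjusted p = 0.0246 and 0.0299). Because the 3 probes read 1 gene in the same RNA, they are not 3 separate observations.

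The 250 bases before the annotated start of the gene are shown for Meis1, Meis2 and Irx3 from RefSeq's GRCm38.p6 promoter table, because the paralogs Meis1 and Meis2 moved in opposite directions and Irx3 was the called gene of IrxB. Capitals mark the core GGTGTG, searched on both strands.
Meis1, chr11:19018970-19019219, minus strand: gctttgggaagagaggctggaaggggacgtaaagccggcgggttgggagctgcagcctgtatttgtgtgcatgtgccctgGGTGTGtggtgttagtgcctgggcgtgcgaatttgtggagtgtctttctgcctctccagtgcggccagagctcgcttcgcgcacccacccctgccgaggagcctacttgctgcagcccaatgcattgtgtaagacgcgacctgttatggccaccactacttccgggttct
Meis2, chr2:116064620-116064869, minus strand: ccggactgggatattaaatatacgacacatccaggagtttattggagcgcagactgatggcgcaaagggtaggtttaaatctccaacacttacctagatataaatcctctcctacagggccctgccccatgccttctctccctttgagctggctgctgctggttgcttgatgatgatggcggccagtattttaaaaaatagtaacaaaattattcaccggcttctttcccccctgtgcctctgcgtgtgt
Irx3, chr8:91801655-91801904, minus strand: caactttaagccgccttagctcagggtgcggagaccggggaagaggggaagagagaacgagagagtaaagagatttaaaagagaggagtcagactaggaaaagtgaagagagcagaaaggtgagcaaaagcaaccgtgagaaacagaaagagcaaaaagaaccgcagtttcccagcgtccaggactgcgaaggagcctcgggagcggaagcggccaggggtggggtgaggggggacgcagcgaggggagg
The table matched 6 of the 10 genes, which also included Irx2, Irx4 and Meis3. The core was found in 1 of the 6 windows, that of Meis1, where it begins 170 bases before the start, and in 16.3% of all 32851 promoters. The longer half-site AGGTGTGA, which contains the core, was in 0 of the 6 and in 1.12% of all promoters. The match in Meis1 is a description of the letters in this window and not evidence of binding. Median GC content was 61.6% over the 6 member windows and 52.4% over all promoters.

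**Figure D2:**
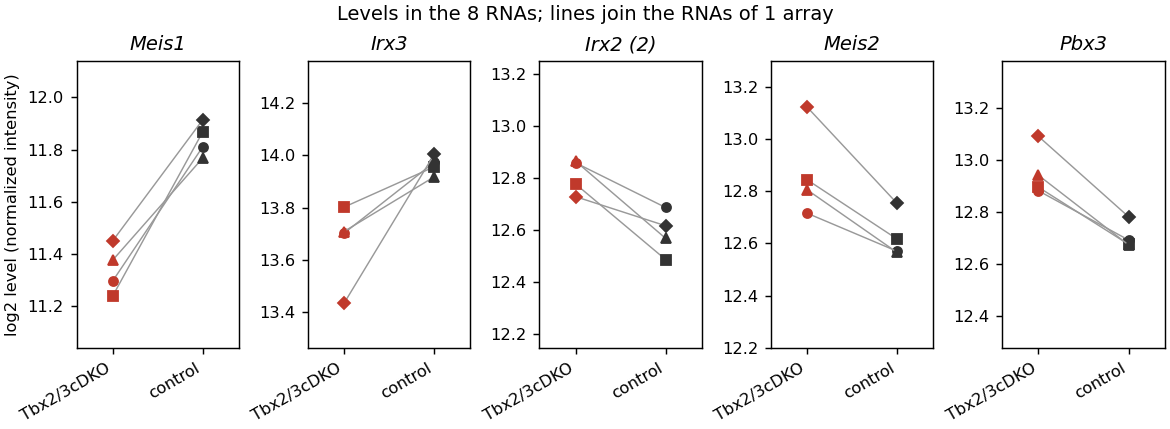
Normalised log2 intensity of the 5 called member probes on each array, Tbx2/3cDKO left of control, with lines joining the 2 channels of an array. Irx2 (2) is the Irx2 probe at chromosome position 72771499. The Tbx2/3cDKO levels lie wholly below the control levels for Meis1 and Irx3, and wholly above them for Pbx3 and this Irx2 probe.

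In the IrxB cluster on chromosome 8, Irx3 fell while its neighbours did not pass the test. Irx3, which acts in neural tube patterning and limb development, had levels of 13.70, 13.80, 13.71 and 13.43 in Tbx2/3cDKO otocysts, against 13.97, 13.96, 13.92 and 14.00 in control otocysts. All Tbx2/3cDKO levels were below all control levels, and the lowest was that of array 4. Its ratios of -0.27, -0.15, -0.21 and -0.57 averaged -0.30 ± 0.19 (SD, n = 4; limma SE 0.075, adjusted p = 0.0293), which is 1.23-fold lower. The call was lost without array 1 (-0.29, adjusted p = 0.105), array 3 (-0.32, adjusted p = 0.0846) or array 4 (-0.20, adjusted p = 0.0800). With the scanner's log ratios and with the deposited series values the ratio stayed at -0.30, with adjusted p-values of 0.0608 and 0.0614.

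Irx5 (probe at 94884923 to 94884982 of chromosome 8, plus strand), which in mouse acts with Irx3 in heart and limb, had ratios of 0.14, 0.33, 0.24 and -0.03 and a mean of 0.17 ± 0.15 (SD, n = 4; limma adjusted p = 0.142). Array 4 was the lowest and array 2 the highest. Without array 4 the fitted ratio was 0.26 with a limma adjusted p of 0.0291, and without array 2 it was 0.081 with an adjusted p of 0.475. A fit on 3 arrays weighs the dye orientations equally, so its ratio is not the plain mean of those arrays. Irx6, the last gene of the cluster (probe at 95203880 to 95203939, plus strand), had ratios of 0.23, 0.02, 0.34 and -0.05, averaging 0.14 ± 0.18 (SD, n = 4; limma adjusted p = 0.116). The unadjusted 95% intervals were 0.0027 to 0.34 for Irx5 and 0.01 to 0.26 for Irx6, which reach from almost no change to sizes above the 0.25 of Meis2. Arrays 1 and 3 were above the other pair for Irx6, which is the split between the dye orientations.

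In the IrxA cluster on chromosome 13 the Irx2 result depended on the probe. The probe at 72771499 had levels of 12.86, 12.78, 12.86 and 12.73 in Tbx2/3cDKO otocysts and 12.69, 12.49, 12.57 and 12.62 in control otocysts, without overlap. Its ratios of 0.17, 0.29, 0.30 and 0.11 averaged 0.22 ± 0.09 (SD, n = 4; limma SE 0.058, adjusted p = 0.0364), or 1.16-fold higher. The probe at 72768784, 2.715 kb away on the same strand, had ratios of 0.08, 0.17, -0.06 and -0.22 and a mean of -0.0076 ± 0.17 (SD, n = 4; limma adjusted p = 0.959). The first probe's ratio exceeded the other's by 0.09, 0.12, 0.36 and 0.33, and the mean of both probes was 0.10 with an adjusted p of 0.271.

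The higher call for Irx2 therefore rested on 1 probe. It was lost without array 1 (0.25, adjusted p = 0.0813), array 2 (0.17, adjusted p = 0.124) or array 3 (0.19, adjusted p = 0.202). It was also lost with a background offset of 10 (0.22, adjusted p = 0.0525), median centring (0.21, adjusted p = 0.0952), the scanner's log ratios (0.21, adjusted p = 0.0771) and the deposited series values (0.21, adjusted p = 0.0770).

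Irx1, the first gene of the cluster (probe at 72095735 to 72095794, minus strand), had ratios of -0.03, 0.22, 0.10 and -0.01, with a mean of 0.07 ± 0.12 (SD, n = 4; limma adjusted p = 0.487). Its 95% interval of -0.08 to 0.22 leaves room for a change in either direction. Irx4, known from the heart ventricle (probe at 73406712 to 73406771, plus strand), had ratios of -0.16, 0.03, -0.30 and -0.18 and a mean of -0.15 ± 0.14 (SD, n = 4; limma adjusted p = 0.125). It passed with a genotype by sex term (adjusted p = 0.0376) and in a fit of separate channels (adjusted p = 0.0340), which called 31.8% and 30.9% of all probes. It was -0.29 with the scanner's log ratios and with the deposited series values (adjusted p = 0.0525 and 0.0529), and -0.10 without array 4 (adjusted p = 0.397).

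The 2 clusters were then set side by side, using the brightest probe of each gene. Neighbouring probes lay 676 kb (Irx1 to Irx2) and 635 kb (Irx2 to Irx4) apart in IrxA, and 562 kb (Irx3 to Irx5) and 319 kb (Irx5 to Irx6) apart in IrxB. The mean log2 ratio of IrxA was -0.01, 0.18, 0.03 and -0.03 on the 4 arrays, or 0.04 ± 0.09 (SD, n = 4). The mean of IrxB was 0.03, 0.07, 0.12 and -0.22, or 0.0018 ± 0.15 (SD, n = 4). IrxA minus IrxB was -0.04, 0.11, -0.09 and 0.19, and its mean of 0.04 was smaller than its SD of 0.13. The sign followed the dye orientation, with a mean of -0.066 on arrays 1 and 3 and of 0.15 on arrays 2 and 4. With a mean for each orientation the SD left was 0.046, beside a mean difference of 0.043. Both SDs are spreads between arrays and do not measure the precision of the mean, and the difference was not tested.

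The genes within each cluster did not share 1 ratio. Gene means ran from -0.15 to 0.22 in IrxA, a spread of 0.37, and from -0.30 to 0.17 in IrxB, a spread of 0.47. Irx3 minus Irx5 was -0.41, -0.48, -0.45 and -0.54, the pair with the lowest SD of the IrxB pairs (0.056), and Irx3 minus Irx6 was -0.51, -0.18, -0.55 and -0.52. Irx3 was thus below both neighbours on every array, including array 4, on which all 3 genes had their lowest ratio. Irx2 minus Irx4 was 0.33, 0.26, 0.60 and 0.29. A difference of 1 sign on all 4 arrays was seen in 3 of 3 IrxA pairs, 2 of 3 IrxB pairs and 3 of 9 pairs across the clusters, which share genes and arrays. The IrxA spread and every pair with Irx2 rest on the higher Irx2 probe. The other Irx2 probe, with a mean of -0.0076, lay between Irx4 at -0.15 and Irx1 at 0.07. With that probe in place of the higher one, the IrxA gene means ran only from -0.15 to 0.07. By that probe Irx2 was above Irx1 on array 1 alone, and below Irx4 on array 4 alone. Neither of these pairs then had 1 sign on all 4 arrays, so the IrxA spread and count did not hold for it. Its pairs across the clusters were not counted.

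**Figure D3:**
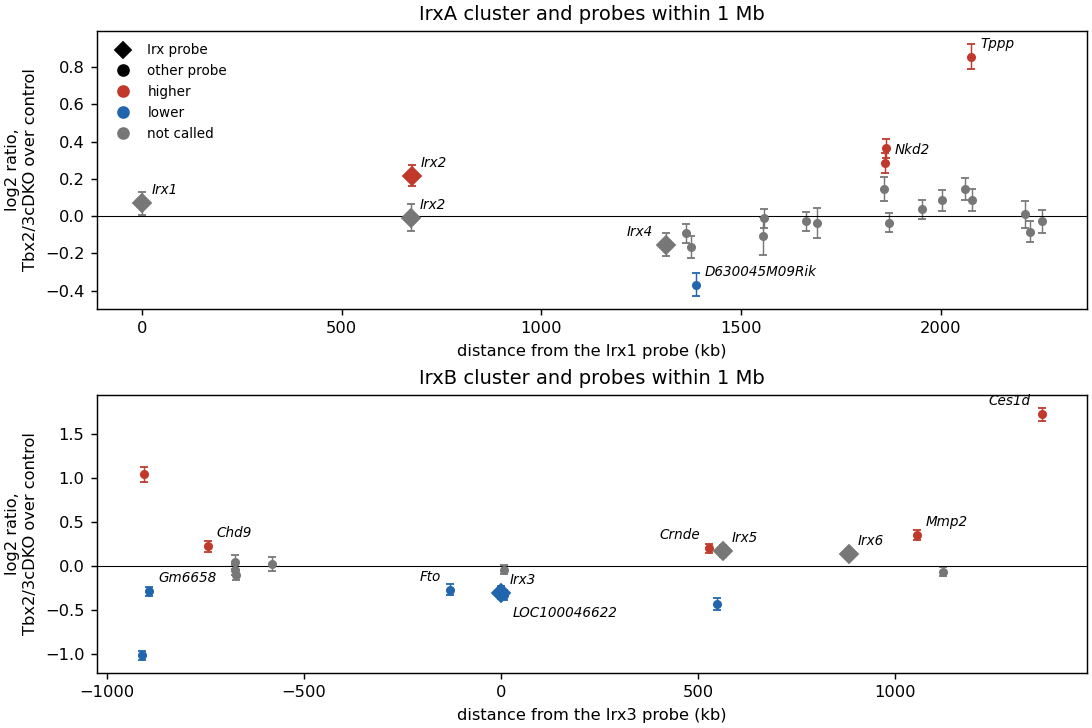
Mean log2 ratio of Tbx2/3cDKO over control, with the limma SE, of Irx probes and of neighbouring probes within 1 Mb, plotted by distance from the Irx1 or the Irx3 probe. Labels name the Irx genes and the called neighbours that have a symbol, and Irx3 at -0.30 lies below Irx5 at 0.17 and Irx6 at 0.14.

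Probes placed by the files within 1 Mb of a member were counted beside the clusters, leaving out those whose gene RefSeq puts on another chromosome. Around IrxA, 19 were tested, of which 3 were higher and 1 lower (21.1%, near the 22.1% of all probes). Around IrxB 16 were tested, of which 5 were higher and 5 lower (62.5%). Around each cluster 1 of the higher calls was not well above background in the control channel of any array, so it passed the filter only through the Tbx2/3cDKO channel. Near Irx3, LOC100046622 at 6.37 kb was lower (-0.33 ± 0.09, SD, n = 4; limma adjusted p = 0.00616), while a transcript with no gene name at 7.17 kb did not pass (-0.04 ± 0.03, SD, n = 4; limma adjusted p = 0.632). Fto, 131 kb away, was lower (-0.27 ± 0.13, SD, n = 4; limma adjusted p = 0.0239). Fto encodes an RNA demethylase, and introns of it hold enhancers that contact Irx3 in mouse. Near Irx5 the values went both ways, with the long non-coding RNA Crnde at 0.20 ± 0.05 (SD, n = 4; limma adjusted p = 0.0338) and the transcript TC1719415 at -0.43 in the fit, with a mean of -0.41 ± 0.11 over the 3 arrays that measured it (limma adjusted p = 0.00888). Crnde lies on the strand opposite to Irx5.

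Farther from the Irx genes, Mmp2, a matrix metalloproteinase gene 173 kb from Irx6, was higher by 0.35 ± 0.06 (SD, n = 4; limma adjusted p = 0.00335). Ces1d, a carboxylesterase gene named Ces3 in the files, was higher by 1.73 ± 0.18 (SD, n = 4; limma adjusted p = 2.29e-05). The 2 called Nkd2 probes near IrxA, for a Wnt pathway inhibitor, were higher by 0.29 and 0.36, and Tppp was at least 1.81-fold higher because its control signal was not well above background on any array. Chd9, a chromatin remodeller gene, was higher by 0.23, while Gm6658 (-0.29) and D630045M09Rik (-0.37) were lower. A pair of probes for 1 predicted transcript near Chd9 went opposite ways, 1 at -1.01 and the other at least 2.06-fold higher. Each bound sets the mean Tbx2/3cDKO level against, on each array, the lowest signal well above background or the control signal where that was higher. For both probes the control signal was used on every array, so each bound equals the measured ratio.

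Of 7 other TALE genes examined, 2 were higher and 1 lower by their brightest probe, with a median log2 ratio of 0.014, against 13.1% higher and 9.8% lower (22.9% in all) over all genes at 1 probe a gene. The 10 members counted in this way had 3 higher and 2 lower. Tgif1, a repressor in TGF-beta and retinoid signalling, had ratios of 0.80, 0.66, 0.78 and 0.66, or 0.72 ± 0.08 (SD, n = 4; limma adjusted p = 0.000129). That is 1.65-fold higher, a larger change than that of any member. Its paralog Tgif2 was lower on 2 of 3 probes (-0.27 and -0.23), the other being -0.18 with an adjusted p of 0.0572. Mkx, a tendon cell factor, was higher by 0.56 ± 0.21 (SD, n = 4; limma adjusted p = 0.00408). Pbx2, Pbx4, Pknox1 and Pknox2 did not pass, with values of 0.01, -0.12, -0.13 and 0.10 at their brightest probes.

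Among 11 anterior Hox genes, whose products pair with Meis and Pbx proteins, 6 could be tested. Of these 1 was higher and 1 lower, against 13.1% and 9.8% of all genes at 1 probe a gene. With 6 genes, these counts cannot be told from that background. Hoxb2 was lower, at -0.41 (limma adjusted p = 0.00335). The higher call was Hoxb4, which was well above background on 4 arrays in the Tbx2/3cDKO channel and on 1 array in the control channel, so the size of its change is uncertain. Hoxb1, Hoxd3, Hoxa4, Hoxc4 and Hoxd4 were not well above background on enough arrays to be tested.

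Marker genes of other cell types moved in the same samples, and in bulk tissue fewer cells of a type and less RNA per cell cannot be told apart. The marker counts stand beside 13.1% higher and 9.8% lower over all genes at 1 probe a gene. Of erythroid markers 8 of 8 were higher (median log2 ratio 1.09), with summed levels (log2) of 19.63 to 19.76 in Tbx2/3cDKO samples against 18.05 to 18.71 in control samples. Endothelial markers were higher in 8 of 8 tested (median 0.68, summed levels 14.12 to 14.18 in Tbx2/3cDKO and 13.46 to 13.58 in control samples), with Erg not tested. Periotic mesenchyme markers were higher in 10 of 12 and lower in 1 (median 0.41, summed levels 15.92 to 16.00 in Tbx2/3cDKO and 15.89 to 16.10 in control samples), with Tcf21 not tested. Otic neuroblast markers were higher in 7 of 12 and lower in 0 (median 0.61, summed levels 14.51 to 14.77 in Tbx2/3cDKO and 13.99 to 14.12 in control samples), with Neurod4 not tested.

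Otic epithelium markers had a median of -0.50, with summed levels of 16.53 to 16.76 in Tbx2/3cDKO samples against 17.53 to 17.72 in control samples. Hindbrain markers were split, 2 higher and 2 lower of 7 tested (median -0.02, summed levels 13.96 to 14.07 in Tbx2/3cDKO and 13.64 to 13.83 in control samples), and Pax7, Olig2, Olig3, Egr2, Wnt3a and Lhx5 were not well above background. Surface ectoderm markers had 1 higher and 1 lower of 7 tested (median 0.0013, summed levels 12.57 to 12.79 in Tbx2/3cDKO and 12.93 to 13.10 in control samples), with Krt17 not tested. The median over all genes was 0.0036. Several members are expressed in mesenchyme, neural tissue or blood vessels as well as in otic epithelium, and the part of these shifts in the member ratios was not tested.

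Within the array data, the genes most like a called member were taken by the smallest Euclidean distance between log2 ratios over the 4 arrays, among 13596 named genes. For Meis1 these were Misp (distance 0.080) and Mfsd6 (0.082), with 6 genes within 0.1. For Irx3 they were Aatk (0.068) and Eif2s3y (0.075), with 4 genes within 0.1. Eif2s3y is a Y-linked gene, yet its probe had ratios of -0.22 and -0.20 on arrays 1 and 2, which are labelled female. What that probe reads in those RNAs was not tested. For the higher Irx2 probe they were Slc16a7 (0.045) and Olfm1 (0.052), with 25 within 0.1. Meis2 was nearest to Ociad2 (0.058) and P2ry6 (0.060) with 34 within 0.1, and Pbx3 to Atp1b3 (0.036) and Nap1l1 (0.037) with 52. Irx3 and Meis1 thus had the fewest genes within that distance, and their absolute ratios exceeded those of 85.8% and 93.5% of all probes tested. Few genes have ratios of that size, so these counts depend on the size of the ratio.

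No member probe passed the test of a difference between the sexes. With a genotype by sex term, 0 of 13 member probes had an adjusted p under 0.05 in limma and 1 had an unadjusted p under 0.05, against 4 probes (0.0172%) with an adjusted p under 0.05 on the whole array. Meis1 was -0.43 in males and -0.57 in females, and Irx3 -0.39 in males and -0.21 in females. Each sex had 2 arrays, 1 of each dye orientation.

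**Figure D4:**
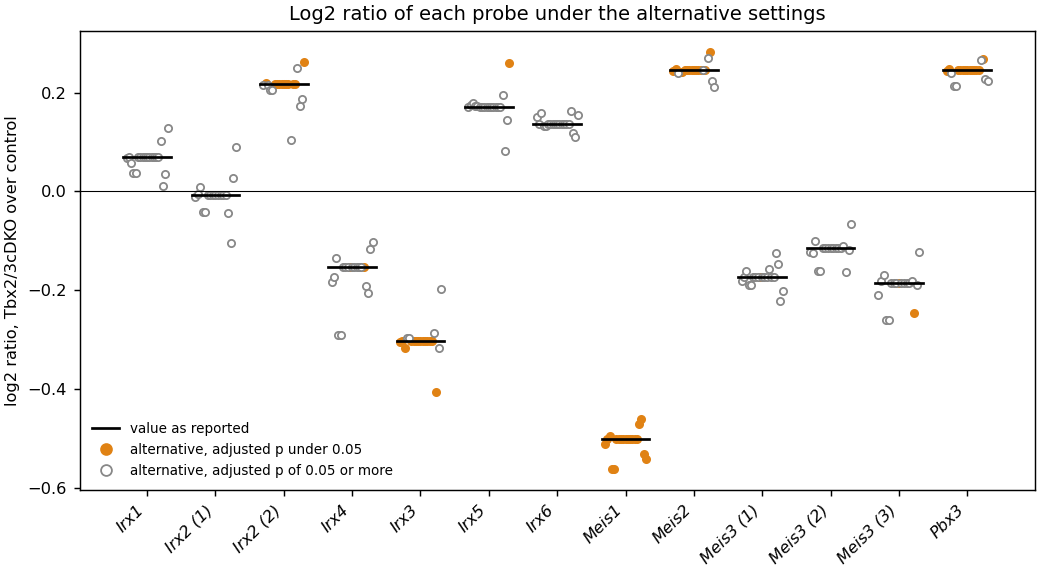
Log2 ratio of Tbx2/3cDKO over control of each member probe under each alternative setting, with filled points where the adjusted p was under 0.05. Meis1 is filled under all 19 settings and Irx3 and Meis2 under 14, while Pbx3 is filled under 13 and the higher Irx2 probe under 11.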

How the data were processed

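Total RNA was amplified, labelled with AlexaFluor555 or AlexaFluor647 and hybridised to 4 arrays, per the labels. Per the file headers, spots were read with Agilent Feature Extraction 10.7.3.1 and the deposited values are mean and background intensity for each dye. The deposited log10 ratios were made by the scanner software from background-subtracted, dye-normalised signals, per the file headers. The authors' deposited series values are scores, signed fold ratios with a median of 1, for which no centring step is given in the sources used here. At a tolerance of 0.001 they matched the scanner's Tbx2/3cDKO over control ratio for 90.8% to 93.3% of probes.

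Intensities were corrected with normexp (offset 50) and loess within each array in limma 3.58.1 (R 4.3.3), with control spots weighted 0 and 21 to 33 non-uniform spots per array left out. Levels were scaled with Aquantile between arrays. A probe was kept if 3 or more of the 4 arrays called it well above background in 1 genotype. The model held a genotype effect, signed by the dye of the mutant RNA, and an intercept for dye bias. P-values are two-sided and were adjusted by Benjamini-Hochberg over all 23204 probes at a threshold of 0.05. The number of arrays limits the precision (2 residual degrees of freedom, 4.83 prior). The scripts were tested on simulated data, in which 79 of 100 probes changed 1.2-fold and 100 of 100 changed 1.5-fold were recovered. A change of 1.2-fold or less can thus be missed. The simulation gave every probe the same noise and 182 calls in all, against 5124 in the data, so these shares need not hold for a member.

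Replicate numbers pair the samples because the 2 RNAs of a number shared an array. Named genes were all members, 7 other TALE genes (one further gene is not reported here), Tbx2 and Tbx3, called neighbours within 1 Mb, and the 2 genes most like each called member. Members, lists and tests were chosen with earlier results of these data known. Background correction, normalisation, filter, model terms, probe choice, pairing and single arrays were varied.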

Additional observations from a re-analysis of the deposited data

Results flagged for a closer look

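The Irx2 probe at position 72768784 of chromosome 13 had a log2 ratio of -0.14 in males and 0.12 in females (2 arrays each). The male minus female difference was -0.26 (limma unadjusted p = 0.0329, adjusted p = 0.262), so the signs were opposite but the difference did not pass after adjustment. The other Irx2 probe had 0.20 in males and 0.23 in females.

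Pbx4, a TALE gene outside the Irx and Meis families, had a log2 ratio of 0.08 on array 1 against -0.18, -0.18 and -0.19 on the other 3 arrays. The gap was 0.951 of the whole range, above Dixon's 95% critical value for 4 samples. This was 1 of 26 probes examined in this way, and chance gives about 1 in 20.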

How the results depend on the processing

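Meis1 was called lower under all 19 alternatives. Each of the other 4 called probes lost its call under at least 5 of 19. The 3 higher calls became 0 with median centring (4 at an unadjusted limma p under 0.05), 1 with the scanner's log ratios and 1 with the deposited series values. Leaving out 1 array gave 0 to 2 higher calls and 1 to 3 lower calls, in fits that called 14.2% to 21.5% of all probes tested. The 2 lower calls became 1 with the scanner's log ratios, 1 with the deposited series values and 5 with a genotype by sex term, under which 7375 probes in all were called against 5124. The IrxA mean ran from -0.02 to 0.07, the IrxB mean from -0.04 to 0.07 and IrxA minus IrxB from -0.02 to 0.09. The difference was 0.043 as reported, and below 0 with the scanner's log ratios and the deposited series values (-0.02 each) and without array 4 (-0.0063). All moves were smaller than 1 SD between arrays, which was 0.13 for the difference and takes in the split by dye orientation. Within an orientation the SD of the difference was 0.046, less than its move from 0.043 to -0.02. The Irx2 probe at 72768784, at -0.0076, had the opposite sign at 0.0092 with median centring and ran from -0.10 to 0.089 when 1 array was left out, above 0 without array 3 (0.03) and without array 4 (0.089). With no replicate block, where the channels of an array were not paired, Meis2 lost its call (adjusted p = 0.101) and no other called member did. The causes were not tested. All members were well above background, but the dim Irx4 probe was -0.29 with the scanner's log ratios and -0.15 as reported.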
